A study of Mus musculus with 8 samples.

Results

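The genes described here are 31 protein folding and stress genes of the mouse, chosen by name from the 24498 genes of the deposited table. They make up 21 genes of the endoplasmic reticulum, 8 of the cytosol and nucleus, and 2 of mitochondria, and all 31 were found. The source of the RNA was dissected dorsal hippocampus, from C57BL/6J males of 10 to 12 weeks. Every mouse had received an adeno-associated virus (AAV2/9) in that region, so none was uninjected. The control vector expressed EGFP from a CMV promoter (eGFP, called WT in the sample titles). The knockdown vector (ACSS2_KD) carried in addition a hairpin RNA against Acss2 behind a U6 promoter, which is active in any transduced cell. The control vector is not described as carrying a hairpin. At 3 weeks after injection, mice stayed in the home cage (HCC, untrained) or were trained with 3 objects in 3 trials of 6 min, 3 min apart (SOR, trained), and were killed 30 min later. The 4 groups held 2 libraries each, 8 in all, and it is not stated if a library is 1 mouse or a pool. P-values therefore cover the spread between these libraries alone, which can be technical in part.

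Proteins that enter the secretory pathway fold in the lumen of the endoplasmic reticulum. When unfolded chains accumulate there, the sensors IRE1, PERK and ATF6 signal to the nucleus, and the transcription factors XBP1, ATF4 and cleaved ATF6 raise chaperones, disulfide isomerases and the machinery that exports failed chains for degradation. Cytosolic folding has its own circuit: the factor HSF1 is held inactive by Hsp70 and Hsp90 chaperones and, once released, binds heat shock elements of their genes. Neurons keep high levels of constitutive chaperones such as HSPA8 and HSP90 for protein turnover at synapses.

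Among the genes described here, the ER stress elements were found in reticulum genes alone. The heat shock element was found in 1 cytosolic gene and both mitochondrial genes. The genes were chosen by name as folding and stress genes, so these matches are a description and no independent result. Their sequences are shown here. RefSeq promoters (GRCm38.p6, from 250 bases before to 50 bases after the start) were found for 27 of the 31 genes, including 19 reticulum, 6 cytosolic and both mitochondrial genes. The 4 genes without one were Hyou1, Manf, Hspa8 and Hsp90aa1. Each motif was searched on both strands. The ER stress element, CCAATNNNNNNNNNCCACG, known as a binding site of NF-Y and ATF6, was in 8 of the 19 reticulum genes and in 0 of the 6 cytosolic genes, against 0.119% of all 32851 promoters. Its shorter relative, ATTGGNCCACG, was in 2 further reticulum genes, Dnajb11 and Herpud1, against 0.0365% of all promoters. The matches are given with 5 bases on each side, 5′ to 3′, with the fixed letters of the element in capitals. That of Dnajb11 lies 7 to 17 bases after the start site, and the others lie before it.
Calr, chr8:84847070-84847098, plus strand: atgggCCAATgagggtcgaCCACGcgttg
Canx, chr11:50325795-50325823, minus strand: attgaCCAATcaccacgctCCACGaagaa
Creld2, chr15:88819515-88819543, minus strand: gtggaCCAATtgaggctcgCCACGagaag
Dnajc3, chr14:118937822-118937850, plus strand: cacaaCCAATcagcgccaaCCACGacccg
Hsp90b1, chr10:86705633-86705661, minus strand: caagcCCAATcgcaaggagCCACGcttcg
Hsp90b1, chr10:86705528-86705556, plus strand: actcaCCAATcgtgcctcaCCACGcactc
Hspa5, chr2:34772020-34772048, plus strand: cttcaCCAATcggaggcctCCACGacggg
Pdia6, chr12:17266486-17266514, plus strand: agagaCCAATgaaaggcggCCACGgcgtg
Syvn1, chr19:6046527-6046555, plus strand: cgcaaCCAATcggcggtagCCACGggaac
Dnajb11, chr16:22857847-22857867, plus strand: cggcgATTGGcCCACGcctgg
Herpud1, chr8:94386372-94386392, plus strand: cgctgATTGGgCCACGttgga
The heat shock element searched, GAANNTTCNNGAA, and its reverse complement were in Hsph1 of the cytosolic genes and in both mitochondrial genes, against 0.603% of all promoters. It was in 0 of the 19 reticulum genes. The chaperonin genes Hspd1 and Hspe1 lie head to head, and 1 stretch with overlapping matches serves both windows. In Hsph1 the match lies 15 to 27 bases after the start site.
Hsph1, chr5:149636283-149636305, plus strand: gaggaGAActTTCcaGAAtctgc
Hspe1 and Hspd1, chr1:55088059-55088081, plus strand: ttctaGAAccTTCcgGAAggccc
TGACGTGG, the core of the XBP1 element, was in 0 of the 19 reticulum genes (0.676% of all promoters). TGATGNAA, the core shared by sites of ATF4, was in Herpud1 (3.97% of all promoters). A match is a description of these letters, and no match says only that these letters are not in this window.

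Values are read counts that the authors scaled by 1 size factor per library, called normalized read counts. Libraries are named by the end of their column name: eGFP.254 and eGFP.268 (control, untrained), eGFP.250 and eGFP.266 (control, trained), KD.253 and KD.255 (knockdown, untrained), and KD.249 and KD.251 (knockdown, trained). Reads in genes numbered 6537749 to 9863728 in 6 libraries, 1484318 in KD.251 and 272456 in KD.255. A read is worth 2.88 normalized counts in KD.251 and 15.6 in KD.255, so a count of 0 there allows up to 8.65 and 46.7, against at most 1.98 elsewhere. The targeted gene Acss2 stood at 58.2 and 82.0 (untrained) and 87.4 and 67.5 (trained) with the control vector, and at 25.0 and 15.6 and 25.6 and 57.7 with the knockdown vector, where 15.6 is 1 read. All 12 markers of pyramidal and granule neurons were detected. Their summed level was 38406 and 38666 in untrained and 30049.7 and 29782 in trained control libraries. Most of this sum was Camk2a, at 29279 and 30463 untrained and 24024 and 22074 trained. Of the 12, 4 were lower after training without overlap and 0 higher, against 14.3% and 14.5% of all tested genes. The median distance of the 12 from their means over all libraries, on the log scale, was 0.30 in eGFP.254 and 0.22 in eGFP.268. It was -0.23 in eGFP.250 and 0.042 in eGFP.266. Markers of other cells also moved between libraries. The summed level of 12 choroid plexus and ependyma markers, led by Ttr, was 72975 in eGFP.250 and 18921 in eGFP.254, against 770.4 to 3649 in the other 6. The sum of 10 oligodendrocyte markers was 11332 to 15990.1 in untrained and 21087 to 25492 in trained control libraries. The sum of 10 interferon response genes was 258 to 388 with the control and 1088 to 5263 with the knockdown vector.

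The 31 genes covered a wide range of levels. Per kilobase of exon, the mean normalized read count over the 8 libraries was highest for the reticulum Hsp90, Hsp90b1 (1091), the cytosolic Hsp90, Hsp90aa1 (1064), and the constitutive Hsp70, Hspa8 (961). The calcium-binding lectin chaperone Calr followed at 848 per kilobase. At the other end stood Edem1 (13.7), the stress-inducible Hsp70 genes Hspa1a (4.35) and Hspa1b (4.23), and the small heat shock gene Hspb1 (2.18). The inducible Hsp70 genes were thus far below their constitutive relative in all 4 groups. Hspb1 had between 0 and 12 reads per library and fell below the filter (a mean of at least 10), which 30 of the 31 genes passed. Some genes share sequence with copies: Hspa1a shares 58.8% of its 50-base words with Hspa1b. Of the words of Hsp90aa1 47.5%, of Hspa8 39.4%, of Hspd1 42.1% and of Hspb1 50.1% occur in transcripts of other genes, mostly pseudogenes. The counter put 10.6% to 13.8% of reads per library in an entry for alignments that were not unique, outside the genes. Levels of genes with copies, the inducible Hsp70 genes among them, can therefore be understated, by an amount that was not tested.

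**Figure D1:**
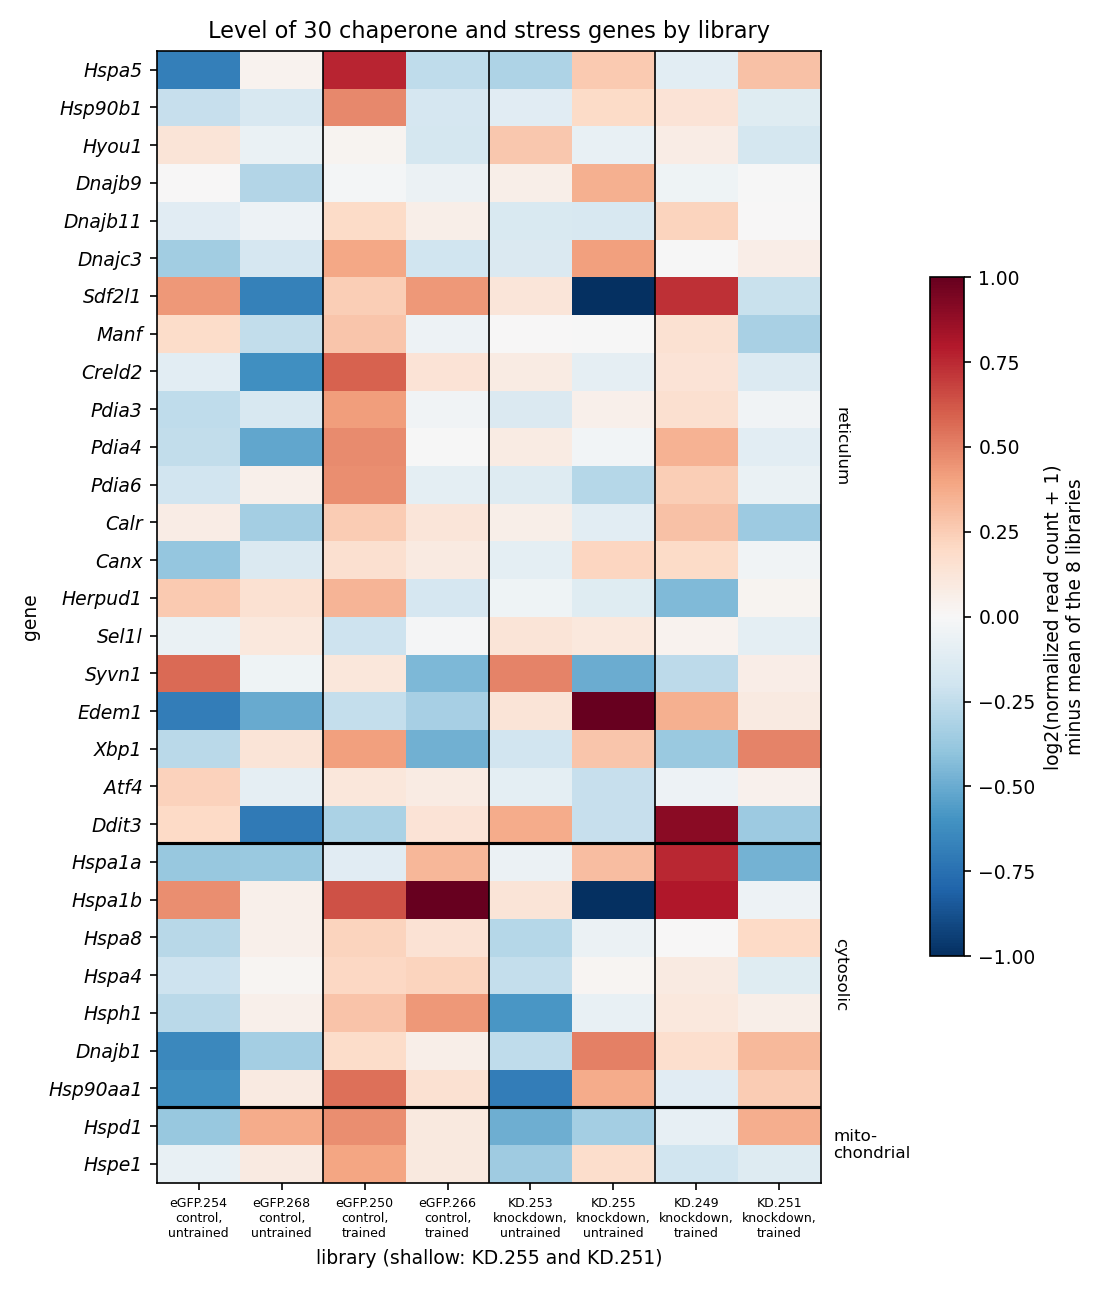
Level of the 30 tested genes (rows, by compartment) in the 8 libraries (columns, by group), as log2(normalized read count + 1) minus the gene's mean over the 8 libraries. Colours end at 1 and -1. The reticulum genes are mostly red in eGFP.250, and the cytosolic genes are mostly red in eGFP.250 and eGFP.266, the trained control libraries.

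With the control vector, the cytosolic genes stood higher after training in both trained libraries, and the reticulum genes did so mainly in eGFP.250. All 7 tested cytosolic genes had both trained values above both untrained values, with a median difference of 0.48 on the log2 scale. Of the 21 reticulum genes, 17 had a higher mean after training, as did 52.1% of all tested genes (reticulum median 0.26) and 7 had groups that did not overlap. The median of all 12681 tested genes was 0.014. No gene passed the test. In limma on log2(normalized read count + 1), with Benjamini-Hochberg adjustment over all tested genes and a threshold of 0.05, 0 of the 30 genes passed, as did 0% of all genes. Unadjusted p-values were under 0.05 for 2 of the 30 (1.43% of all genes), edgeR called 0 of the 30 (0% of all genes), and DESeq2 0 of the 30 (0.0315%). In all, 15 of the 30 genes had non-overlapping groups with the trained libraries higher, and 0 with them lower, where 14.5% and 14.3% of all tested genes did. Exact permutation of 2 against 2 libraries cannot give a p below 0.333.

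Among the cytosolic genes, Dnajb1, the Hsp40 cochaperone that delivers clients to Hsp70, stood at 83.7 and 103 in the untrained and 149 and 136 in the trained control libraries. The means were 93.5 ± 13.9 and 143 ± 8.89 (SD, n = 2), a log2 difference of 0.61 (SE 0.30, adjusted p = 1.00 in limma). Both trained libraries were above both untrained ones by more than the libraries of a group differed. Hsp90aa1, the inducible cytosolic Hsp90, measured 2625 and 4279 untrained and 5874 and 4476 trained (log2 difference 0.61, SE 0.37). Here eGFP.254 was far below eGFP.268, and the gap between eGFP.268 and eGFP.266 was small. Hsph1 and Hspa4, Hsp110 proteins that reload Hsp70 with nucleotide, gave 1494 and 1867 untrained against 2194 and 2441 trained, and 1544 and 1804 against 2056 and 2077. The differences were 0.47 (SE 0.22) and 0.31 (SE 0.19) on the log2 scale, and both genes were higher in eGFP.266 than in eGFP.250. Hspa8, the constitutive Hsp70, stood at 3384 and 4244 and then 4795 and 4527, a difference of 0.30 (SE 0.20). The inducible genes had few reads: Hspa1a had 16 and 21 reads untrained and 22 and 33 trained, and Hspa1b 22 and 21 against 28 and 49. In normalized counts Hspa1a measured 9.31 and 9.31 against 11.4 and 15.8, and Hspa1b 12.8 and 9.31 against 14.5 and 23.4. Their log2 differences of 0.48 (SE 0.75) and 0.71 (SE 1.20) were smaller than their errors.

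**Figure D2:**
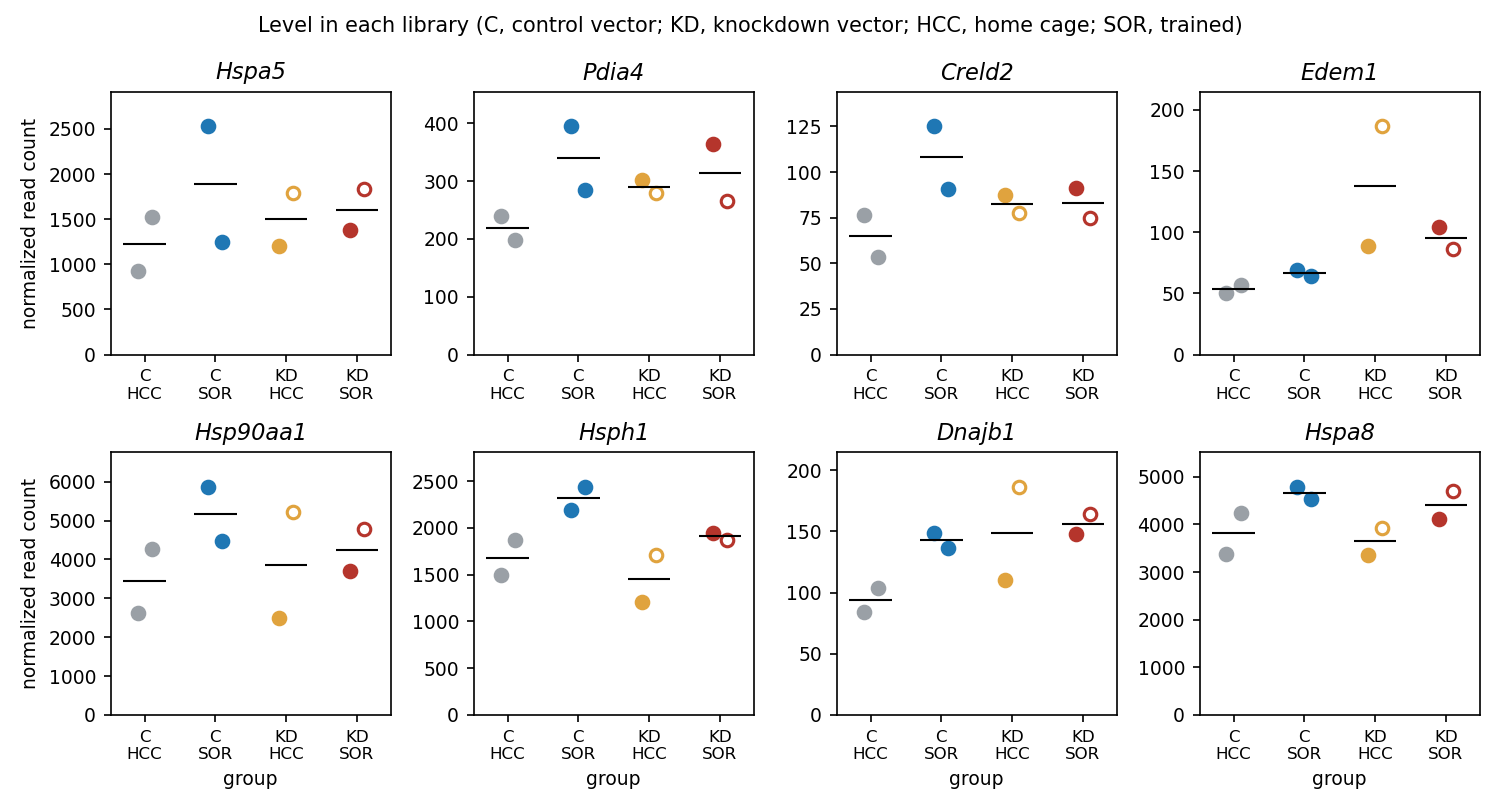
Normalized read count of 8 genes in each library, by group (C, control vector; KD, knockdown vector; HCC, home cage; SOR, trained); black lines are group means and open circles the shallow libraries KD.255 and KD.251. For Dnajb1 and Hspa8 the trained control libraries lie above the untrained ones, for Hspa5 they overlap (eGFP.266 at 1249.5 against eGFP.268 at 1524), and for Edem1 all 4 knockdown libraries lie above the 4 control libraries.

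In the reticulum, Hspa5 (BiP), the Hsp70 of the lumen that holds the stress sensors inactive, measured 930.0 and 1524 in untrained and 2529 and 1249.5 in trained control libraries. Its highest value of the 8 was in eGFP.250, and eGFP.266 lay below eGFP.268, so the groups overlapped (log2 difference 0.58, SE 0.37). Hsp90b1 (GRP94), which finishes the folding of selected clients, gave 3697 and 3876 and 6046 and 3862, again with only eGFP.250 above both untrained libraries. Hyou1, the large exchange factor of BiP, measured 340.2 and 296 and 316 and 274 and overlapped.

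The disulfide isomerases Pdia3, Pdia4 and Pdia6 form and rearrange disulfide bonds. Pdia4 measured 240.2 and 198 untrained and 395 and 285 trained, a log2 difference of 0.62 (SE 0.25, adjusted p = 1.00). Pdia3, the partner of the lectin chaperones, measured 1415 and 1504 and 2252 and 1641 (0.40, SE 0.21). The groups did not overlap for these, whereas Pdia6, at 348 and 413 and 550.2 and 373, overlapped. Creld2, a secreted protein of the lumen with disulfide isomerase activity, stood at 76.8 and 53.7 and 125 and 90.9, the largest reticulum difference (0.72, SE 0.31, adjusted p = 1.00). The lectin chaperones hold chains that carry trimmed sugars. Canx gave 1847 and 2185 and 2686 and 2567 (0.39, SE 0.20) and Calr 2536 and 1909 and 2880.1 and 2630.2 (0.32, SE 0.25). For both lectins each trained library lay above each untrained one, and for Canx eGFP.266 was close to eGFP.250.

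Among the J-domain partners of BiP, Dnajb11 measured 288 and 302 untrained and 357 and 326 trained without overlap (0.21, SE 0.20). Dnajb9, a J-protein that brings BiP to the sensor IRE1, measured 329 and 267 and 324 and 315, and Dnajc3, an inhibitor of PERK, 257 and 292 and 428 and 285 (0.35, SE 0.27), with eGFP.250 alone above the untrained libraries. Both overlapped, as did the secreted protein Manf (283 and 211 against 302 and 241) and Sdf2l1, a partner of Dnajb11 (45.9 and 20.8 against 40.3 and 45.9).

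Genes of degradation and of transcription did not share the higher values. Of the 4 genes of reticulum-associated degradation, 3 had a lower mean after training. Herpud1, which organizes the export complex at the membrane, measured 81.4 and 75.4 and 86.4 and 60.3, and Syvn1, the ubiquitin ligase of that complex, 196 and 128 and 143 and 96.2. Sel1l, the adaptor of the ligase, measured 1295 and 1462 and 1174 and 1348. The groups overlapped for all 3. Edem1, which marks misfolded glycoproteins by trimming mannose, was the exception, with 50.02 and 57.2 and then 68.8 and 64.6 (0.31, SE 0.36). The 3 transcription factors differed by little between the groups' means. Atf4 measured 751 and 601 and 692 and 679.8 (0.03, SE 0.19), Xbp1 181 and 239 and 291 and 156 (0.036, SE 0.38), and Ddit3, the pro-apoptotic factor CHOP, 273 and 145 and 191 and 261 (0.16, SE 0.45). These are levels of whole transcripts: splicing of Xbp1 and translation of Atf4, the steps at which stress acts on them, are not measured by such counts. The mitochondrial chaperonin genes stood at 378 and 637 and 679 and 527 (Hspd1) and at 248 and 279 and 345 and 279.9 (Hspe1). The latter did not overlap, by a margin smaller than 1 normalized count. Exons of Hspd1 and Hspe1 overlap by 112 bases on opposite strands, and the sources used here do not give the strand setting of the counting.

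The reticulum difference depended on eGFP.250. The cytosolic one did not depend on that library, but part of it came from low values in eGFP.254. Among the 6 deep libraries, eGFP.250 had the highest value of 10 of the 21 reticulum genes, of both mitochondrial genes and of 3 of the 7 cytosolic genes, against 20.3% of all tested genes. For the reticulum genes the knockdown library KD.249 came next with 6 of 21, against 17.3% of all tested genes. As a median over the reticulum genes, each library's distance from the 8-library mean was 0.26 in eGFP.250 and -0.048 in eGFP.266, against -0.11 in eGFP.254 and -0.16 in eGFP.268. The trained control libraries thus stood apart by more than the untrained ones. KD.249 stood at 0.14 by this median. For the cytosolic genes the same median was 0.23 in eGFP.250 and 0.22 in eGFP.266, against -0.28 in eGFP.254 and 0.048 in eGFP.268. Here the untrained libraries stood apart. With single libraries left out, the cytosolic training difference was smallest without eGFP.254, at a median of 0.31. Without eGFP.250 the training difference had a median of 0.07 over the reticulum genes (14 of 21 higher) and 0.55 over the cytosolic genes (7 of 7 higher). Hspa5 then differed by 0.07, Pdia4 by 0.38 and Creld2 by 0.50. The choroid plexus sum was highest in eGFP.250 and second highest in eGFP.254. Without both of these libraries the medians were 0.13 (reticulum, 12 of 21 higher) and 0.39 (cytosolic, 7 of 7 higher), with 1 library left in each control group. The part of choroid plexus tissue in the reticulum levels of eGFP.250 was not tested. Neither was that of the oligodendrocyte markers, whose sum was higher in both trained control libraries. The same holds for the neuron markers, whose sum, mostly Camk2a, was lower in both. As a median, the neuron markers were at -0.23 in eGFP.250 and 0.042 in eGFP.266. In bulk tissue, fewer cells of a type and less RNA per cell cannot be told apart.

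**Figure D3:**
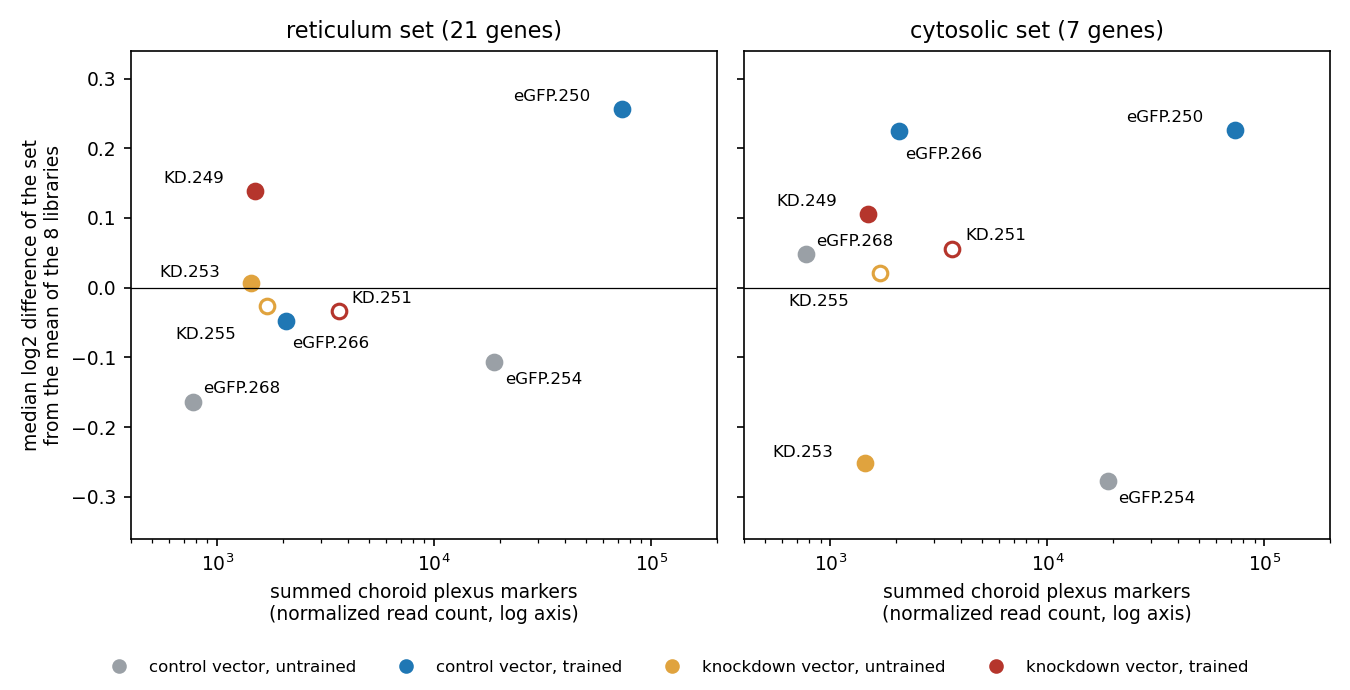
Median log2 difference of the reticulum genes (left) and the cytosolic genes (right) from the mean of the 8 libraries, against the summed choroid plexus and ependyma markers of the library on a log axis; open circles are the shallow libraries. On the left eGFP.250 lies above the rest at 0.26, and on the right it lies beside eGFP.266, whose choroid plexus sum was 2067.

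With the knockdown vector, the set medians after training were smaller than with the control vector when all libraries were used, and not for the cytosolic genes without the shallow ones. The 7 cytosolic genes all had a higher mean after training, as did 54.1% of all tested genes, with a median of 0.23, and the reticulum genes were split, with 11 of 21 higher and a median of 0.0018 (all genes 0.037). Limma called 0 of the 30 genes and 0% of all genes, with 0 of the 30 at an unadjusted p under 0.05 (4.48% of all genes), and edgeR and DESeq2 called 0. Groups did not overlap for 6 genes that were higher after training (Dnajb11, Pdia6, Atf4, Hspa8, Hsph1 and Hspd1) and 2 that were lower (Dnajb9 and Sel1l), where 16.4% and 14% of all tested genes did so. Hsph1 measured 1203 and 1711 untrained and 1941 and 1875 trained (log2 difference 0.41, SE 0.22). Hspa8 gave 3363 and 3935 and 4112 and 4711 (0.27, SE 0.20), and Hspd1 351 and 389 and 465 and 635 (0.56, SE 0.29). For Hsph1 and Hspa8 the size was close to that with the control vector. For Hspd1 the difference with the control vector was 0.28 (SE 0.29), and the values of the vectors overlap within their errors. In the shallow KD.255, Dnajb11 had 18 reads, Pdia6 21, Hspd1 25, Dnajb9 27 and Atf4 35. Hspa5 measured 1205 and 1789 and 1382 and 1829, Pdia4 301 and 279.9 and 364 and 265, and Creld2 87.7 and 77.8 and 91.1 and 75.0. The groups of these reticulum genes overlapped, and their differences lay between 0.0018 (Creld2) and 0.12 (Hspa5). Dnajb1 gave 110.1 and 187 and 148 and 164 and Hsp90aa1 2492 and 5210.1 and 3709 and 4791, with the shallow KD.255 the highest of the 4 for both. Without both shallow libraries, which leaves KD.249 against KD.253, the median was 0.57 over the cytosolic (7 of 7 higher) and 0.20 over the reticulum genes (15 of 21 higher). Hspa1b had 0 reads in KD.255, 15 in KD.253, 32 in KD.249 and 3 in KD.251. Its difference of 1.97 (SE 1.20) was 0.67 without the shallow libraries. Without KD.253, which leaves KD.255 alone, limma called it (1 of the 30 genes), as it then called 9.72% of all genes.

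The difference between the training responses of the vectors was tested directly. In limma 0 of the 30 genes and 0% of all genes passed, 0 of the 30 had an unadjusted p under 0.05 (0.883% of all genes), and edgeR and DESeq2 called 0. Knockdown minus control, the response had a median of -0.23 over the reticulum genes and -0.21 over the cytosolic genes (all genes 0.027). It was above 0 for 8 of the 30 genes and for 52.9% of all genes. Creld2 (-0.72, SE 0.44), Pdia4 (-0.52, SE 0.36), Edem1 (-0.75, SE 0.52) and Canx (-0.36, SE 0.28) had the largest negative values relative to their errors. Among the cytosolic genes, Dnajb1 had -0.49 (SE 0.42) and Hsph1 -0.06 (SE 0.32). Without eGFP.250 the reticulum median was -0.062, and without both shallow libraries the medians were -0.093 (reticulum) and -0.0076 (cytosolic). The untrained groups also differed in the sum of 10 immediate early genes, mostly Egr1 and Arc. With the control vector it was 2560 and 1310 untrained and 3781 and 4162 trained. With the knockdown vector it was 4542 and 3577 untrained and 5567 and 3966 trained. Whether this bears on the difference of responses was not tested.

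**Figure D4:**
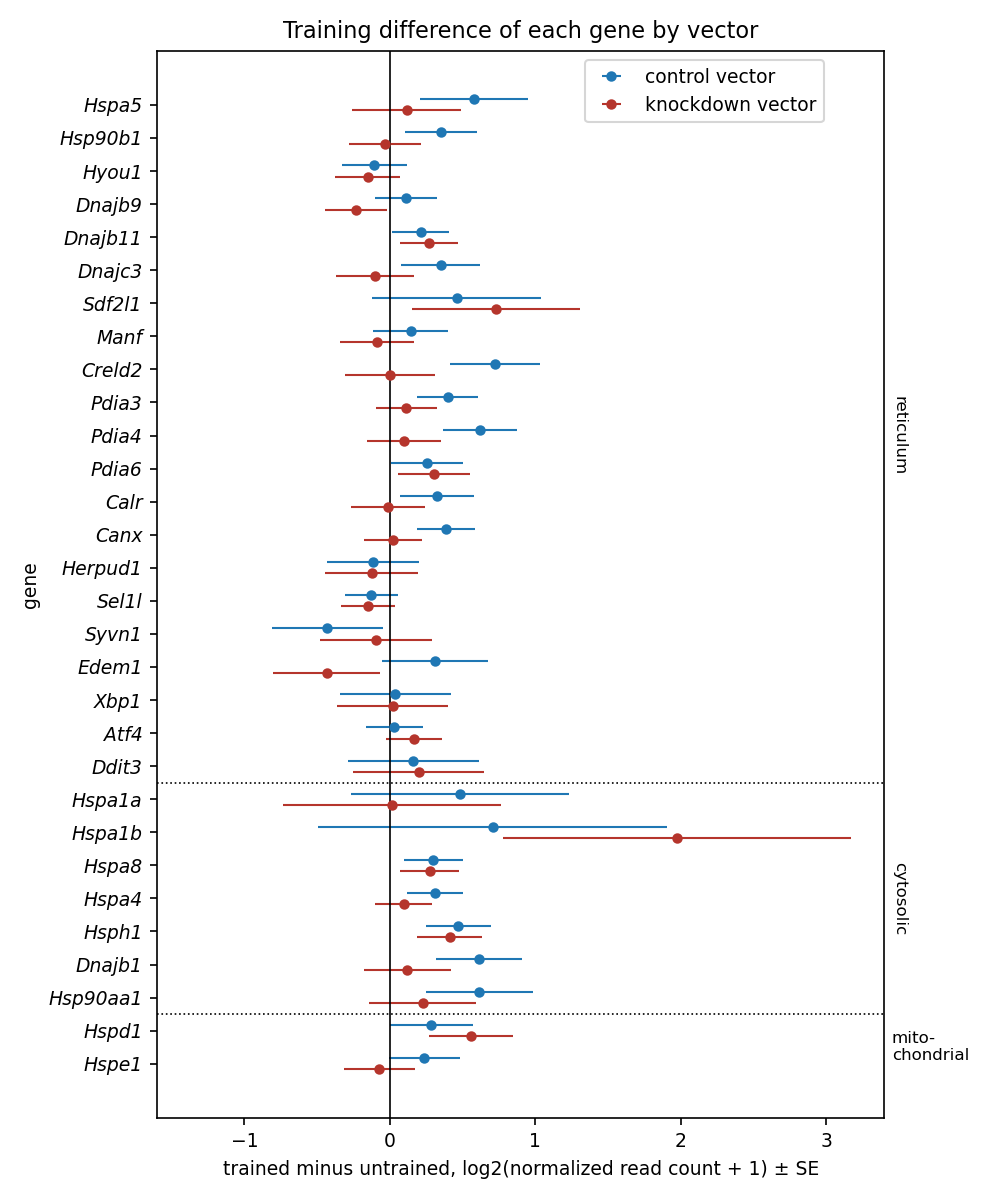
Trained minus untrained difference of each of the 30 tested genes on the log2(normalized read count + 1) scale, with SE from limma, for the control vector (blue) and the knockdown vector (red), n = 2 libraries a group. Blue points lie above 0 for 26 of the 30 genes, red points for 19, and error bars of the pairs mostly overlap; Hspa1b (red) rests on 0 reads in KD.255.

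Averaged over the vectors, 7 of 7 cytosolic genes (median 0.37) and 15 of 21 reticulum genes (median 0.16) were higher after training, against 55.1% of all genes and a median of 0.031 over them. Hsph1 and Dnajb11 were higher in all 4 trained than in all 4 untrained libraries, where 1.65% of all tested genes were, and 0 of the 30 were lower in all 4 (1.62%). Hsph1 had means of 1569 ± 288 untrained and 2113 ± 259 trained (SD, n = 4). Its log2 difference was 0.44 (SE 0.14), with adjusted p = 0.873 in limma, 0.71 in edgeR and 0.372 in DESeq2. Relative to its error, Hspa8 came next among the cytosolic genes (0.29, SE 0.13), and its trained and untrained libraries overlapped. Limma called 0 of the 30 genes (0% of all genes), with 1 of the 30 at an unadjusted p under 0.05 (4.86% of all genes), and edgeR (0%) and DESeq2 (0.0631%) called 0 of the 30. This average uses the same libraries as the comparisons within each vector and adds no independent support to them.

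Between the vectors, 1 of the 30 genes had groups that did not overlap, Edem1, a share close to that of all tested genes. Edem1 measured 50.02 and 57.2 (untrained) and 68.8 and 64.6 (trained) with the control vector and 89.0 and 187 and 104 and 86.5 with the knockdown vector. All 4 knockdown libraries were above all 4 control libraries, as were those of 2.28% of all tested genes, and no other of the 30 genes separated in this way in either direction (1.98% of all genes were lower). The means were 60.1 ± 8.27 and 117 ± 47.3 (SD, n = 4), a log2 difference of 0.88 (SE 0.27). It did not pass with adjustment in limma (adjusted p = 0.595), edgeR (0.242) or DESeq2 (0.107). The highest value, 187 in KD.255, was 12 reads. Without that library the difference was 0.59 (adjusted p = 0.453 in limma), and without both shallow libraries 0.68. Ddit3 measured 273 and 145 and 191 and 261 with the control and 308 and 202 and 445 and 185 with the knockdown vector and overlapped (0.34, SE 0.30). KD.253 and KD.249 were above all 4 control libraries. The shallow KD.255 (13 reads) and KD.251 (64 reads) lay within the range of the control libraries. The trained knockdown libraries differed widely, at 445 and 185. Leaving out the shallow libraries keeps 1 knockdown library in each training state, and the difference was then 0.81. By the numbers in the column names, all 4 knockdown libraries lie in a set with eGFP.250 and eGFP.254, and eGFP.266 and eGFP.268 form a set with higher numbers and no knockdown library. What the numbers stand for is not given in the sources used here. With the set as a term, limma called 0 of the 12681 genes in place of 13, and Edem1 differed by 0.91 (adjusted p = 0.858). In this average limma called 0 of the 30 genes and 0.103% of all genes, edgeR 0 of the 30 and 0.962%, and DESeq2 0 of the 30 and 1.54%; an unadjusted p was under 0.05 for 1 of the 30 (5.59% of all genes). Means were higher with the knockdown vector for 12 of 21 reticulum and 2 of 7 cytosolic genes (44.3% of all genes). The medians were 0.043 (reticulum) and -0.089 (cytosolic), against -0.035 over all genes. Interferon response genes were higher in all 4 knockdown libraries. The sum of 8 microglia markers was 877 to 1040 with the control and 1232 to 1764 with the knockdown vector. All 4 knockdown libraries were higher for 4 of these 8 and for 1 of 8 astrocyte markers, Gfap (2.28% of all tested genes). Whether any of these bear on the level of Edem1 was not tested.

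In untrained mice, the knockdown libraries were higher for 15 of 21 reticulum genes (median 0.11) and 3 of 7 cytosolic genes (median -0.018), against 44.8% of all genes (median -0.046). Groups did not overlap for 11 genes that were higher and 3 that were lower with the knockdown vector, where 14.4% and 16.8% of all tested genes did. Edem1 had the largest such difference (1.25, SE 0.36, adjusted p = 0.816), which was 0.72 without the shallow libraries. Dnajb9 stood at 329 and 267 in control and 342 and 419.9 in knockdown libraries (0.36, SE 0.21). Dnajb1 stood at 83.7 and 103 and 110.1 and 187 (0.62, SE 0.30). Atf4, at 751 and 601 and 598 and 544, and Herpud1, at 81.4 and 75.4 and 65.9 and 62.2, were lower without overlap. For Atf4 the margin was small, with KD.253 at 598.4 and eGFP.268 at 601.0. The KD.255 values were few reads: 4 for Herpud1, 12 for Edem1, 12 for Dnajb1, 27 for Dnajb9 and 35 for Atf4. Each read there is worth 15.6 normalized counts, so these separations rest in part on a shallow library. The untrained control libraries enter here and in the training comparison alike, so a low value in them appears in both. Limma called 0 of the 30 genes (0% of all genes), with 1 of the 30 at an unadjusted p under 0.05 (4.5% of all genes). EdgeR called 0 of the 30 and 0.181% of all genes, and DESeq2 0 of the 30 and 0.434%. Without KD.253, which leaves the shallow KD.255 alone, limma called 2 of the 30 (Edem1 and Hspa1b) and 10.1% of all genes.

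In trained mice, 7 of 21 reticulum genes (median -0.084) and 2 of 7 cytosolic genes (median -0.23) were higher with the knockdown vector, against 49.3% of all genes (median -0.0048). Without eGFP.250 the reticulum median was 0.10 (13 of 21 higher), and without both shallow libraries 0.036 (11 of 21 higher), so its sign changed under either. The cytosolic median was -0.19 (1 of 7 higher) and -0.16 (2 of 7 higher). Groups did not overlap for 1 gene that was higher, Edem1, and for 4 that were lower, Atf4, Hspa4, Hsph1 and Hspe1, where 14.4% and 14.8% of all tested genes did. Hspe1, the lid of the mitochondrial chaperonin, gave 345 and 279.9 with the control and 228 and 239 with the knockdown vector (-0.41, SE 0.24). Hsph1 gave 2194 and 2441 and 1941 and 1875 (-0.28, SE 0.22). Limma called 0 of the 30 genes and 0.00789% of all genes, with 0 of the 30 at an unadjusted p under 0.05 (2.36%), and edgeR (0.0315% of all genes) and DESeq2 (0.26%) called 0 of the 30.

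Other genes of the same circuits were read from 4 lists: 20 sensors, regulators and factors of the unfolded protein response, 30 further folding and degradation genes of the reticulum, 32 further heat shock and cytosolic folding genes, and 8 mitochondrial folding genes. After training with the control vector, limma and edgeR called 0 in any list, and 0% of all tested genes. Over all tested genes, 52.1% had a higher mean, with a median of 0.014. In the lists, means were higher for 10 of 18 tested regulators (median 0.058), a share near that of all genes, and for 22 of 29 reticulum genes (median 0.15). They were also higher for 23 of 32 cytosolic genes (median 0.10) and 6 of 8 mitochondrial genes (median 0.087). The last 3 medians were below those of the reticulum, cytosolic and mitochondrial genes described above. Among the cytosolic list, Chordc1, a cochaperone of Hsp90, measured 202 and 284 untrained and 289.6 and 400.4 trained (0.50, SE 0.25). Hspa4l, another Hsp110 protein, measured 565 and 813 and 861 and 1123 (0.54, SE 0.27). Both were higher in both trained libraries, and more so in eGFP.266. Sec61b and Sec61a1, subunits of the channel into the reticulum, had lower means, with differences of -1.08 (SE 0.63) and -0.51 (SE 0.31). Sec61b measured 247 in eGFP.254 but 69.2 in eGFP.268, against 79.1 and 47.4 trained, and overlapped. Sec61a1 measured 130.9 and 102.45 untrained and 102.38 and 64.1 trained. The regulators Ddit4 and Nfe2l2 had higher ones, 0.77 (SE 0.50) and 0.56 (SE 0.31). Differences of the mitochondrial proteins Clpx and Dnaja3 were 0.17 (SE 0.24) and 0.13 (SE 0.23), both smaller than their errors.

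Between the vectors, averaged over training, limma and edgeR called 0 genes of the 4 lists, where they called 0.103% and 0.962% of all genes. DESeq2 called 2 of the 18 tested regulators and 0 of the 29, 32 and 8 genes of the other lists, against 1.54% of all genes. The 2 were Atf3 and Nupr1, stress-induced regulators downstream of ATF4. The transcript of Atf4 itself was not higher, with means of 681 ± 61.7 with the control and 606 ± 48.4 with the knockdown vector (SD, n = 4). Atf3 measured 5.23 and 5.32 (untrained) and 6.72 and 14.8 (trained) with the control vector and 27.0 and 15.6 and 30.7 and 23.1 with the knockdown vector, where 15.6 is 1 read. In KD.251 a read is worth 2.88 normalized counts, so its value was also few reads. All 4 knockdown libraries were higher, as for 2.28% of all tested genes, by 1.55 (SE 0.47) on the log2 scale. The adjusted p was 0.583 in limma, 0.0522 in edgeR and 0.029 in DESeq2. For Nupr1 the difference was 0.90 (SE 0.31), with adjusted p-values of 0.715, 0.0852 and 0.0372 in the same order. Its groups overlapped, with KD.251 at 31.7 below eGFP.254 at 33.7. Whether the interferon response, microglia or astrocyte genes bear on Atf3 or Nupr1 was not tested. Next among the regulators, relative to its error, was Nfe2l2 (0.55, SE 0.23). The 2 genes of each other list with the largest differences for their errors were Derl1 (0.37, SE 0.19) and Ero1l (0.35, SE 0.18) in the reticulum, and Dnaja4 (0.31, SE 0.16) and Fkbp4 (-0.27, SE 0.13) in the cytosol. In mitochondria they were Clpp (-0.42, SE 0.18) and Trap1 (-0.33, SE 0.16).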

How the data were processed

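RNA was measured in 8 libraries of mouse dorsal hippocampus, 2 in each of 4 groups. Per the labels' protocols, polyadenylated RNA was sequenced from ScriptSeq v2 libraries on a NextSeq 500. The submitters' processing notes name mm10 as the build and, as tools, STAR 2.3.0, HTSeq 0.6.1, bcl2fastq 02.14.01.07, bedtools and DESeq; for the annotation and the strand setting, the answer is not given in the sources used here. In the deposited table, the authors give a normalized signal, read counts divided by 1 size factor per library. Dividing each deposited column by its smallest value gave whole reads in 100% of values (relative tolerance 1e-06). The 5 summary entries of the counter stayed out; per library, 16.4% to 20.3% of reads fell in no gene, 10.6% to 13.8% did not align uniquely, 2.76% to 7.86% did not align and 0.379% to 0.424% were ambiguous. Reads carried no molecular identifiers, so floors of 3 reads take in counting error alone. Within groups, libraries differed beyond sampling noise (chi-square per degree of freedom 2.08 to 34.0).

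From these values, limma 3.58.1 (R 4.3.3) with an intensity trend was fitted to log2(normalized read count + 1), a scale that understates changes of low genes, over 12681 genes whose mean was 10 or more. All 8 libraries shared 1 spread (4 residual degrees of freedom and 5.13 from the prior; 5 and 4.71 in the additive fits for the averages). P-values were adjusted over all tested genes by Benjamini-Hochberg, and a gene passed under 0.05. EdgeR 4.0.16 (quasi-likelihood), DESeq2 1.42.0 and limma voom were run on the recovered reads as alternatives, beside other pseudocounts, filters, scaling, each library left out, both shallow libraries left out and the sets of library numbers as a term. Leaving out eGFP.250 and eGFP.254 together was chosen after seeing the data. The fits were tested on simulated data, for the comparison of the vectors averaged over training and 12681 genes.

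The genes, their sets, the other lists and the marker lists were chosen with earlier results of these data known. Values are given for every gene of the 3 sets; from the 4 other lists, the 2 genes with the largest difference relative to its error are named for training with the control vector and for the vectors averaged. Gene lengths, exon overlaps and shared 50-base words come from GENCODE M21 (GRCm38.p6), promoters from RefSeq. Protein sequences were not used here.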

Additional observations from a re-analysis of the deposited data

How the results depend on the processing

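No paired analysis was possible because the columns carry no replicate number of the labels. The count of genes that passed was 0 of the 30 in all 7 comparisons under each alternative run, except without KD.253, where 1 passed for training with the knockdown vector (Hspa1b) and 2 for the vectors in untrained mice (Edem1 and Hspa1b). That fit leaves KD.255 alone and assumes that it varies like the other groups. Without each library in turn, counts ranged from 0 to 1 and from 0 to 2 there and from 0 to 0 elsewhere.

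Set medians ranged as follows without each library in turn. For reticulum genes they were 0.070 (without eGFP.250) to 0.37 for training with the control vector, -0.092 to 0.12 with the knockdown vector, 0.095 to 0.25 averaged, 0.087 to 0.20 for the vectors in untrained mice, -0.29 (without eGFP.266) to 0.10 (without eGFP.250) in trained mice, -0.048 to 0.14 averaged, and -0.40 to -0.062 for the difference of responses. For cytosolic genes they were, in the same order, 0.31 (without eGFP.254) to 0.55, -0.037 (without KD.253) to 0.39 (without KD.255), 0.24 to 0.52, -0.22 to 0.11, -0.30 to -0.16, -0.20 to -0.0076, and -0.35 to -0.035.

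Without both shallow libraries the reticulum median was 0.20 for training with the knockdown vector, 0.28 for training averaged, 0.073 (17 of 21 higher) for the vectors averaged, 0.036 for the vectors in trained mice (sign changed) and -0.093 for the difference of responses; the cytosolic median was 0.57 and 0.55 for training, -0.15 for the vectors in untrained mice and -0.0076 for the difference of responses. Without eGFP.250 and eGFP.254 the reticulum median was 0.13 for training with the control vector, 0.0058 for training averaged, 0.10 for the vectors in trained mice (sign changed) and -0.043 for the difference of responses; the cytosolic median was -0.22 for the vectors in untrained mice and 0.024 for the difference of responses (sign changed). With the sets of library numbers as a term, the reticulum median for the vectors averaged was -0.057 and the cytosolic median for the vectors in untrained mice 0.041 (signs changed). The cause of these shifts was not tested. Other pseudocounts, filters, scalings and tools left these medians within the spread between libraries. Depth limits Hspa1a, Hspa1b and Hspb1, and every value of KD.255.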
